A study of Mus musculus with 12 samples.

Results

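The Slc4 family was described in kidney cortex through its 10 members, Slc4a1, Slc4a2, Slc4a3, Slc4a4, Slc4a5, Slc4a7, Slc4a8, Slc4a9, Slc4a10 and Slc4a11, out of 23183 gene symbols measured. The members were taken by symbol, and Slc4a11 was chosen by its values: it was lower in Acot12-/- than in Acot12+/+ kidneys on both sides, and the relatives were added to be read beside it. Male C57BL/6 mice (C57BL/6N in the study's methods) aged 6 to 7 weeks, either wild type (Acot12+/+) or carrying a global germline mutation of Acot12 made with an RNA-guided endonuclease (Acot12-/-), had a single ureter closed (unilateral ureteral obstruction, UUO). On day 7 the cortex of the obstructed and of the contralateral (CL) kidney was sequenced as RNA, which gave 4 groups of 3 libraries, 12 in all: Acot12+/+ CL, Acot12+/+ UUO, Acot12-/- CL and Acot12-/- UUO. The CL kidney is thus a control within operated animals. The labels do not say whether the 3 libraries of a group came from 3 animals, so the p-values measure the spread between these libraries only.

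Slc4 proteins carry bicarbonate or carbonate across the cell membrane, either in exchange for chloride (the anion exchangers) or together with sodium (the sodium bicarbonate cotransporters). In the kidney they return filtered bicarbonate to the blood in the proximal tubule and move acid or base across intercalated cells of the collecting duct. Slc4a11 stands apart in sequence and in substrate: it was first described as a borate transporter, later as a pathway for protons, ammonia and water, and it is best known from the corneal endothelium, where its loss causes corneal dystrophy.

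Values are FPKM, that is, fragments per kilobase of a gene's transcript after scaling of the libraries, so levels can be set side by side between genes. Library size estimated from the steps in the low values was 12120000 to 15980000 fragments in CL and 18160000 to 22540000 in UUO libraries. Median-ratio size factors of the FPKM were 0.965 to 1.01, while the FPKM totals ran from 491078 to 977981. The sizes can thus include scaling already in the values and are not a measure of sequencing depth. Libraries of the same group correlated at r = 0.974 to 0.992 over genes, except for Acot12-/- CL replicate 2, which reached 0.942 and 0.950 with the other libraries of its group. The targeted gene, Acot12, an acyl-CoA thioesterase, was at 73.8, 52.7 and 78.1 FPKM in Acot12+/+ CL and at 9.15, 9.01 and 6.80 in Acot12-/- CL. In UUO kidneys it was at 9.98, 16.7 and 21.2 in Acot12+/+ and at 3.28, 1.80 and 3.86 in Acot12-/-. No Acot12-/- library reached the lowest Acot12+/+ library of the same side. Podocyte markers (5 genes), which belong to the glomeruli of the cortex, summed to 57.7 to 120 FPKM in the 12 libraries.

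Of the 10 members, 7 reached the level required for testing (at least 1 FPKM in at least 3 libraries), and Slc4a5, Slc4a8 and Slc4a10 did not. Slc4a4 had the highest level in every library, from 37.6 to 238 FPKM. Obstruction moved members in both directions: Slc4a11 and Slc4a3 rose, and Slc4a1 and Slc4a4 fell, in both genotypes. In Acot12+/+ kidneys 4 of the 7 tested members were called (limma on log2(FPKM + 1), Benjamini-Hochberg adjusted p under 0.05 over 13243 genes), 2 higher and 2 lower in UUO, where 47.5% of all tested genes were called, 23.6% higher and 23.9% lower. In Acot12-/- kidneys 4 of 7 were called, again 2 higher and 2 lower, where 53.7% of all tested genes were called, 26.6% higher and 27.2% lower. The share of members called is therefore close to that of genes in general, and the median change of the 7 members, 0.12 in Acot12+/+ and 0.11 in Acot12-/- on the log2 scale, lay beside 0.005 and -0.011 over all tested genes.

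**Figure D1:**
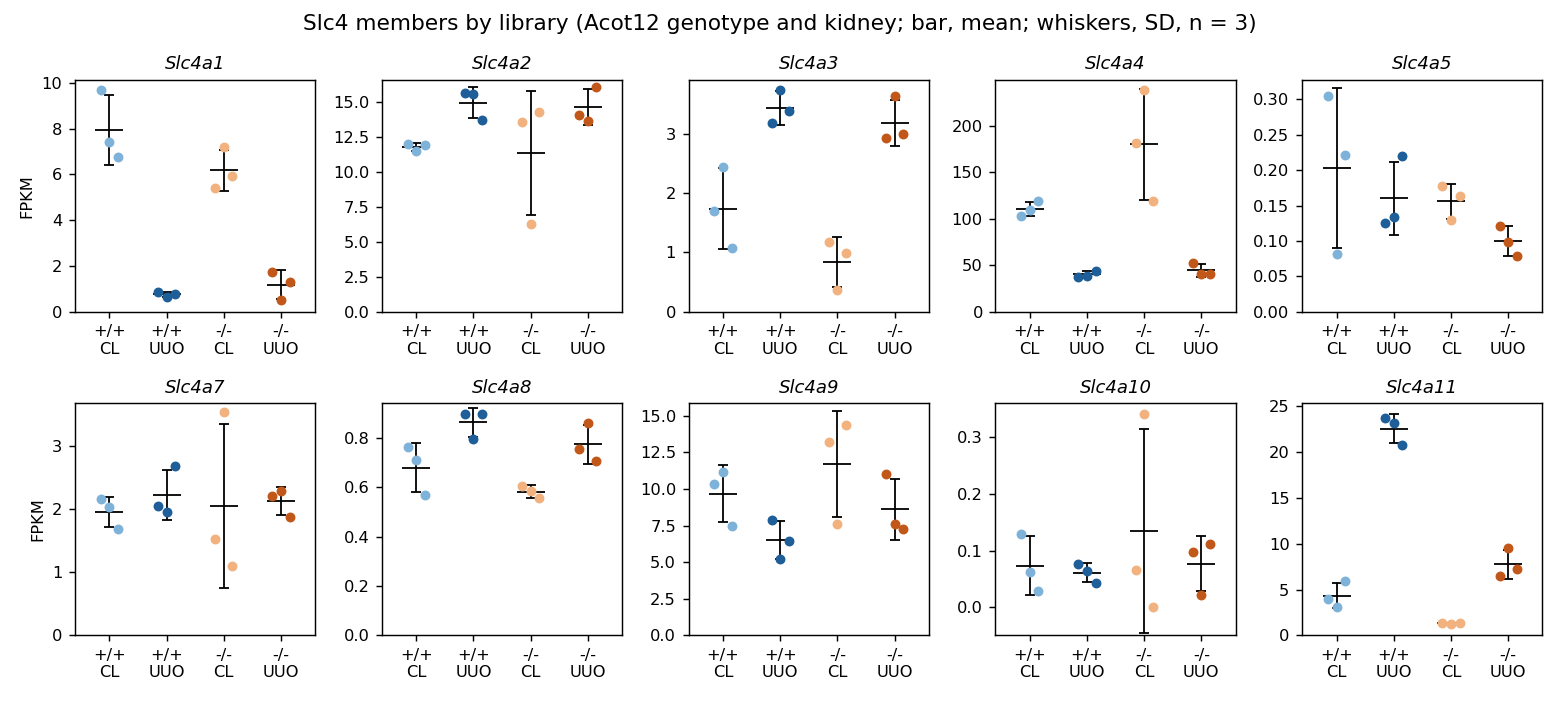
Each panel plots a member's FPKM (linear axis, own scale) in the 12 libraries, 3 points a group in order of replicate number, with the group mean (bar) and SD (whiskers, n = 3). The Slc4a11 libraries form 4 levels without overlap, Slc4a1 and Slc4a4 are low in UUO of both genotypes, and the wide whiskers of Slc4a2 and Slc4a7 in Acot12-/- CL come with replicate 2.

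Slc4a11 (ENSMUSG00000074796, chromosome 2, 130684113 to 130697519, minus strand, GRCm38) was the member with the largest rise. The CL kidneys of Acot12+/+ mice had 4.02, 3.15 and 5.90 FPKM, and their UUO kidneys 23.8, 23.2 and 20.7 FPKM. The CL kidneys of Acot12-/- mice had 1.33, 1.27 and 1.41 FPKM, and their UUO kidneys 6.51, 9.51 and 7.23 FPKM. Every UUO library was above every CL library of its genotype, and the mean rose 5.18-fold in Acot12+/+ and 5.82-fold in Acot12-/- kidneys. On log2(FPKM + 1) the rise was 2.17 ± 0.19 (SE; limma, adjusted p = 8.02e-06) in Acot12+/+ and 1.89 ± 0.19 (adjusted p = 8.51e-06) in Acot12-/-. CL and UUO libraries with the same replicate number gave ratios of 3.52 to 7.36 in Acot12+/+ and of 4.91 to 7.51 in Acot12-/-, higher in UUO for 3 of 3 numbers in each genotype.

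The genotype values of Slc4a11 are the ones it was selected on and are given as a description. Its mean was 2.91-fold lower in Acot12-/- than in Acot12+/+ UUO kidneys and 3.27-fold lower in CL kidneys. The groups therefore ran in the order Acot12-/- CL, Acot12+/+ CL, Acot12-/- UUO and Acot12+/+ UUO, and no neighbouring groups in this order overlapped: the highest library of a group and the lowest of the next were 1.41 and 3.15, 5.90 and 6.51, and 9.51 and 20.7 FPKM. The middle step was the narrowest. The interaction, that is, how far the response to obstruction differed between genotypes, is the difference of these same genotype contrasts. It is therefore also a description for Slc4a11. It was -0.27 on the log2 scale (limma, 95% interval -0.84 to 0.30), and with a pseudocount of 0.1 it was 0.05, so neither a smaller nor a larger response in Acot12-/- kidneys was shown.

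**Figure D2:**
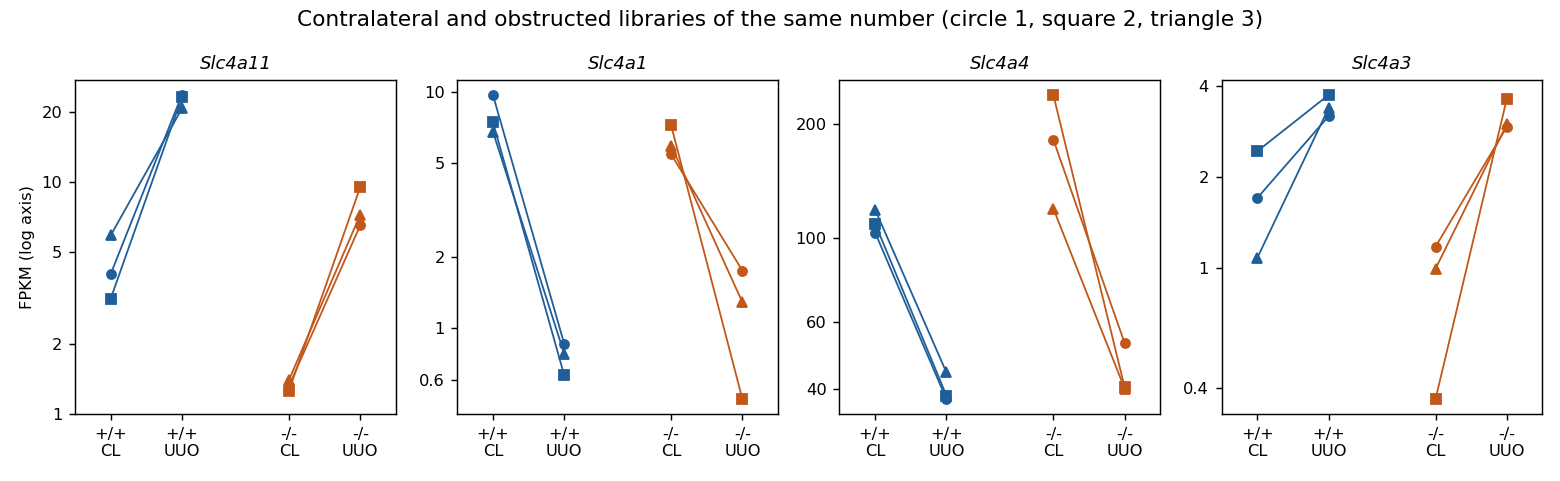
FPKM (log axis) of Slc4a11, Slc4a1, Slc4a4 and Slc4a3 in CL and UUO libraries, a line joining libraries of the same genotype and replicate number (blue Acot12+/+, orange Acot12-/-). All lines of Slc4a11 and Slc4a3 go up and all lines of Slc4a1 and Slc4a4 go down, and the Slc4a11 lines of the genotypes run at separate heights.

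In the kidney Slc4a11 has been placed in the thin descending limb. The 6 genes listed here as thin limb markers (Aqp1, Slc14a2, Bst1, Sptssb, Fst and Cryab) summed in Acot12+/+ kidneys to 339 to 521 FPKM on the CL side and 373 to 466 on the UUO side, and in Acot12-/- kidneys to 399 to 675 and 322 to 476 FPKM. Aqp1 and Cryab made up most of these sums, with means of 257 and 146 FPKM in Acot12+/+ CL kidneys. Whether these genes mark the thin limb in cortex was not checked here. The members of this list went different ways: in Acot12+/+ kidneys the water channel gene Aqp1 was called lower in UUO (-1.48 ± 0.26 on the log2 scale (SE), limma, adjusted p = 0.00068) and the small heat shock gene Cryab higher (1.17 ± 0.34, adjusted p = 0.0136), which the sums do not show. The 5 markers of urothelium and papilla surface (Krt5, Psca, Upk1b, Upk2 and Upk3a) were higher in most UUO than CL libraries, as Slc4a11 was. They summed in Acot12+/+ kidneys to 5.42, 61.3 and 5.61 FPKM on the CL side and to 113, 147 and 14.4 on the UUO side, and in Acot12-/- kidneys to 0.70, 14.9 and 6.94 and to 109, 154 and 98.4 FPKM. Of the 5, Krt5 was called higher in Acot12+/+ UUO and all 5 in Acot12-/- UUO (limma). Injured tubule markers (7 genes, Havcr1 and Lcn2 among them) moved with the rise: they summed to 87.8 to 192 FPKM in CL and 1457 to 1868 in UUO libraries, and overlapped between genotypes on each side. Macrophage markers (7 genes) summed to 133 to 149 FPKM in the CL libraries of Acot12+/+, to 46.3 to 103 in those of Acot12-/- and to 431 to 730 under UUO. Their sum was thus lower in the Acot12-/- CL libraries, as Slc4a11 was, but overlapped between the genotypes in UUO. Not every marker followed the sum: Csf1r had means of 14.4 FPKM in Acot12-/- CL and 14.0 in Acot12+/+ CL. Fibroblast markers (7 genes) showed the same order, at 139 to 177 against 47.4 to 108 FPKM in CL and at 340 to 496 against 338 to 482 in UUO libraries. Endothelial markers (6 genes) also had a lower sum in the Acot12-/- CL libraries (43.1 to 65.9 against 128 to 204 FPKM) and overlapped in UUO (115 to 145 against 101 to 118). In CL kidneys 3 of 7 macrophage, 2 of 7 fibroblast and 5 of 6 endothelial markers were called lower in Acot12-/- (limma). Over all tested genes 445 of 13243 were called lower there. The part of these cell types in the Slc4a11 values was not tested. In whole cortex, fewer cells of a type and less RNA per cell cannot be told apart, which holds for every member.

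The nearest tested genes on each side of Slc4a11 were read beside it. Itpa, a nucleotide pyrophosphatase whose gene ends 2499 bases from Slc4a11, had means of 75.5 and 46.3 FPKM in the CL and UUO kidneys of Acot12+/+, then 58.0 and 46.1 in those of Acot12-/-. Ddrgk1, an endoplasmic reticulum protein of the UFMylation pathway, had 160, 117, 232 and 132 FPKM in the same order. On the other side, 4930402H24Rik had 14.9, 16.8, 13.3 and 11.0 FPKM, and Atrn (attractin) 6.00, 6.42, 8.17 and 6.40 FPKM. None of these 4 neighbours was called higher in UUO in either genotype (limma), while Itpa was called lower in Acot12+/+ kidneys (-0.69 ± 0.17 (SE), adjusted p = 0.00473).

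The tested genes whose log2 values followed Slc4a11 most closely over the 12 libraries were Rasal3, a Ras GTPase-activating protein of blood cells (r = 0.975), Rap2a, a small Ras-related GTPase (r = 0.971), Cd6, a receptor on T cells (r = 0.968), and Acap1, an Arf GTPase-activating protein (r = 0.964). These correlations describe libraries that share the division into 4 groups. They also draw on the genotype differences on which Slc4a11 was chosen, so they are a description only. The level of Rasal3 was 0.717, 2.26, 0.130 and 1.28 FPKM on average in Acot12+/+ CL, Acot12+/+ UUO, Acot12-/- CL and Acot12-/- UUO, and that of Rap2a was 5.18, 7.11, 3.97 and 6.20. In the same order Cd6 was at 0.327, 1.235, 0.068 and 0.658 FPKM and Acap1 at 0.679, 2.11, 0.203 and 1.35. The mean of Cd6 thus passed 1 FPKM in Acot12+/+ UUO only.

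Among the anion exchangers, Slc4a1 (AE1; chromosome 11, 102348824 to 102366203, minus strand, GRCm38) fell furthest. AE1 is the band 3 protein of red blood cells, and its kidney form releases bicarbonate at the basolateral side of type A intercalated cells. It was at 9.68, 7.43 and 6.77 FPKM in Acot12+/+ CL and at 0.857, 0.631 and 0.779 in Acot12+/+ UUO. In Acot12-/- kidneys it was at 5.43, 7.19 and 5.91 FPKM in CL and at 1.75, 0.500 and 1.28 in UUO. The CL and UUO libraries did not overlap in either genotype, and the mean was 10.5-fold lower in Acot12+/+ UUO and 5.25-fold lower in Acot12-/- UUO. The change was -2.34 ± 0.21 on the log2 scale (SE; limma, adjusted p = 1.06e-05) in Acot12+/+ and -1.76 ± 0.21 (adjusted p = 2.96e-05) in Acot12-/-. Their difference, 0.58 (95% interval -0.06 to 1.22), was not called (limma, adjusted p = 0.544).

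Because AE1 marks both red blood cells and type A intercalated cells, markers of both were read beside it. Of 3 tested erythroid markers, Alas2, the first enzyme of heme synthesis in red cells, was called lower in Acot12+/+ UUO, as Slc4a1 was (-1.22 ± 0.44 on the log2 scale (SE), limma, adjusted p = 0.0387). Hemoglobin alpha (Hba-a1) was at 62.5, 632 and 220 FPKM in Acot12+/+ CL and at 65.5, 34.7 and 51.5 in Acot12+/+ UUO, with a mean of 305 against 50.6 FPKM that was not called (limma, adjusted p = 0.0906). The third marker, Hba-a2, went the other way and was not called (1.77 ± 1.87 (SE), limma, adjusted p = 0.46). It jumped between libraries, at 0.017, 0.018 and 20.4 FPKM in Acot12+/+ CL and at 0.018, 58.1 and 13.6 in Acot12+/+ UUO. The Acot12-/- libraries had Hba-a1 at 22.5, 3.82 and 76.9 FPKM in CL and at 70.8, 39.2 and 136 in UUO, and none of the 3 tested erythroid markers was called (limma; 0 also had an unadjusted p under 0.05). Of 6 genes listed here as type A markers, Slc26a7 was below the level for testing (0 to 0.807 FPKM), and the other 5 gave 2 calls in Acot12+/+ kidneys. Kit was higher in UUO (0.77 ± 0.16 on the log2 scale (SE), limma, adjusted p = 0.00222). Oxgr1, a receptor for oxoglutarate whose place among type A markers was not checked here, was lower (-1.79 ± 0.21, adjusted p = 4.85e-05). Aqp6, Dmrt2 and Adgrf5 were not called. In Acot12-/- kidneys 2 of the 5 were called higher and 1, Oxgr1, lower (limma). Of 5 markers of intercalated cells in general, 4 were called lower in Acot12+/+ UUO (limma): Atp6v1g3 and Atp6v0d2, proton pump subunits, by -2.42 and -0.84 on the log2 scale, the ammonia channel gene Rhcg by -1.34, and the proton pump subunit gene Atp6v1b1 by -0.65. Of these 5, 3 were called lower in Acot12-/- UUO. The one not called in either genotype was Foxi1, the transcription factor that defines intercalated cells, at 11.0 to 14.5 FPKM on the CL and 12.4 to 16.1 on the UUO side of Acot12+/+ mice, a change of 0.16 ± 0.19 (SE; 95% interval -0.25 to 0.57, limma, adjusted p = 0.497). The part of these cells in the Slc4a1 values was not tested. Over the 12 libraries the genes closest to Slc4a1 were Tmigd1 (r = 0.994), Bckdhb (r = 0.988), Sdhaf4 (r = 0.987) and Calb1 (r = 0.987); Calb1, the calcium buffer of the distal convoluted tubule, fell from 495 to 9.79 FPKM on average in Acot12+/+ and from 486 to 21.3 in Acot12-/- kidneys.

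Slc4a3 (AE3; chromosome 1, 75546266 to 75562172, plus strand), an exchanger known mainly from heart and brain, was low and rose. It was at 1.70, 2.43 and 1.08 FPKM in Acot12+/+ CL and at 3.18, 3.74 and 3.38 in Acot12+/+ UUO. In Acot12-/- kidneys it was at 1.17, 0.366 and 0.991 FPKM in CL and at 2.93, 3.63 and 2.99 in UUO. Every UUO library was above every CL library, with means 1.98-fold and 3.77-fold higher. On the log2 scale the rise was 0.72 ± 0.20 (SE; limma, adjusted p = 0.0117) in Acot12+/+ and 1.21 ± 0.20 (adjusted p = 0.00036) in Acot12-/-. Without Acot12+/+ CL replicate 3 the first was 0.54 and no longer called (limma, adjusted p = 0.056), and without Acot12-/- CL replicate 2 the Acot12-/- means differed 2.94-fold.

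Slc4a2 (AE2; chromosome 5, 24423837 to 24440950, plus strand), the exchanger found in most epithelia, had the highest mean of the anion exchangers in all groups but Acot12-/- CL, where that of Slc4a9 was 11.7 FPKM against 11.4. In Acot12+/+ kidneys it was at 12.0, 11.5 and 11.9 FPKM in CL and at 15.7, 15.6 and 13.7 in UUO, higher without overlap. In Acot12-/- kidneys it was at 13.6, 6.30 and 14.3 FPKM in CL and at 14.1, 13.7 and 16.1 in UUO, which overlap. Neither change was called: 0.32 ± 0.23 on the log2 scale (SE; limma, adjusted p = 0.281) in Acot12+/+ and 0.41 ± 0.23 (adjusted p = 0.157) in Acot12-/-. The low library, Acot12-/- CL replicate 2, widens the spread shared by all groups, and without it the Acot12+/+ rise of 0.32 passed the threshold (limma, adjusted p = 0.0114), while the Acot12-/- estimate fell to 0.06. Slc4a2 shares its locus with Fastk on the opposite strand, and how the reads were assigned to strands is not given in the sources used here.

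Slc4a9 (AE4), a transporter of type B intercalated cells, had levels of 10.4, 11.2 and 7.48 FPKM in the CL and of 7.85, 5.21 and 6.47 in the UUO libraries of Acot12+/+ mice. In Acot12-/- mice its levels were 13.2, 7.60 and 14.3 FPKM on the CL side, then 11.0, 7.57 and 7.26 under UUO. It was lower in UUO for 3 of 3 replicate numbers in each genotype, but the groups overlapped and no change was called: -0.50 ± 0.24 (SE; limma, adjusted p = 0.107) and -0.38 ± 0.24 (adjusted p = 0.207). Without Acot12-/- CL replicate 2 both were called, at -0.50 (limma, adjusted p = 0.0354) and -0.64 (adjusted p = 0.0196). Type B markers moved the same way: all 4 (Slc26a4, Insrr, Hmx2 and Hepacam2) were called lower in both genotypes, and Slc26a4 (pendrin), the apical exchanger of these cells, changed by -1.60 ± 0.29 in Acot12+/+ (SE; limma, adjusted p = 0.000791), a larger estimate than that of Slc4a9. Genes that followed Slc4a9 closely were Tmem151a (r = 0.923), the potassium channel gene Kcnq1 (r = 0.913) and Insrr, the receptor that senses alkaline pH (r = 0.866), looser than the genes closest to Slc4a11, Slc4a1 and Slc4a4.

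**Figure D3:**
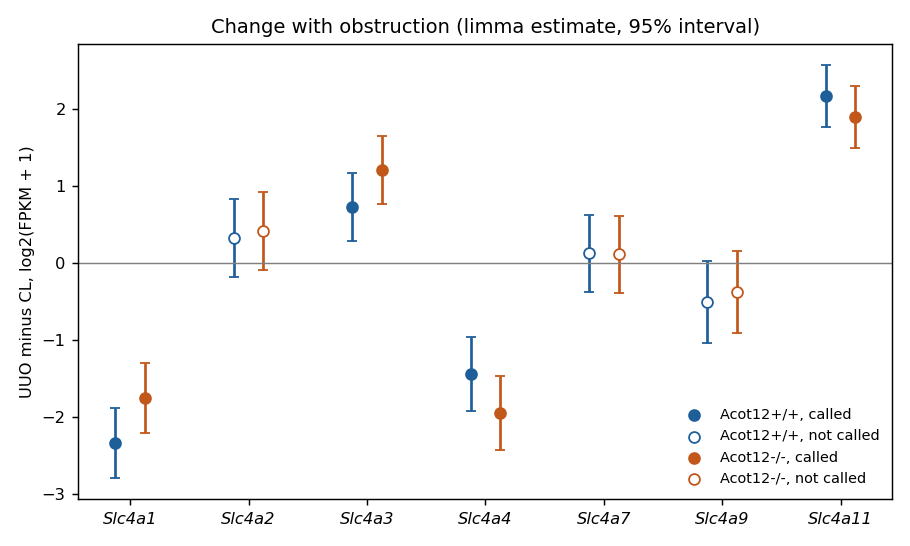
Change with obstruction of the 7 tested members as the limma estimate on log2(FPKM + 1) with its 95% interval, for Acot12+/+ (blue) and Acot12-/- (orange), filled where called. Slc4a11 and Slc4a3 lie above 0, Slc4a1 and Slc4a4 below 0, and the intervals of Slc4a2, Slc4a7 and Slc4a9 reach 0 in both genotypes.

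Slc4a4 (NBCe1; chromosome 5, 88886818 to 89239653, plus strand), the electrogenic cotransporter through which proximal tubule cells pass bicarbonate to the blood, had the largest share of the family's RNA in every library. Its gene has 2 RefSeq starts, 140706 bases apart: the upstream start gives forms used in many tissues, and the form of the proximal tubule begins at the downstream start. The FPKM add both together. RefSeq windows for GRCm38.p6 were matched for 7 of the 10 members, and the 250 bases before the downstream Slc4a4 start, at chr5:89027716-89027965 on the plus strand, are printed because they precede the kidney form of the member that sets the family total, with CG pairs in capitals:
Slc4a4 downstream start: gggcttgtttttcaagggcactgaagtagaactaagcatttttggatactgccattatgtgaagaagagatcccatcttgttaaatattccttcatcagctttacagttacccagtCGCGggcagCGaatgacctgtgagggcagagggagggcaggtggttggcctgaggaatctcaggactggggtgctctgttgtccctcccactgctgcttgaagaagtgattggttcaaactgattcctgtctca
This window holds 3 CG pairs and 48.8% G or C, where the window before the upstream start holds 44 CG pairs and 82.0% G or C. The upstream window begins at 88887010, inside the annotated gene, and overlaps 1 annotated exon of Slc4a4, whereas the downstream window overlaps no exon. The median over 32817 RefSeq windows of this length is 6 CG pairs. The window of the downstream start thus lies on the CG-poor side and that of the upstream start above 99.5% of all windows. These counts describe the letters of the reference and carry no information on which start was used in these kidneys.

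Slc4a4 was at 103, 109 and 119 FPKM in Acot12+/+ CL and at 37.6, 38.4 and 44.2 in Acot12+/+ UUO. In Acot12-/- kidneys it was at 182, 238 and 120 FPKM in CL and at 52.8, 40.4 and 40.1 in UUO. No UUO library reached a CL library, and the means were 2.76-fold lower in Acot12+/+ UUO and 4.05-fold lower in Acot12-/- UUO. The change was -1.44 ± 0.22 on the log2 scale (SE; limma, adjusted p = 0.000282) in Acot12+/+ and -1.95 ± 0.22 (adjusted p = 2.29e-05) in Acot12-/-, and the difference of -0.51 (95% interval -1.19 to 0.18) was not called (limma, adjusted p = 0.671). In CL kidneys the Acot12-/- mean was 1.63-fold the Acot12+/+ mean (1.36-fold without Acot12-/- CL replicate 2) with no overlap, but the lowest Acot12-/- library (119.5 FPKM) and the highest Acot12+/+ library (118.8 FPKM) nearly met.

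Proximal tubule markers moved with Slc4a4. The 10 markers, among them the phosphate transporter Slc34a1 and the endocytic receptor Lrp2, summed to 3476 to 4945 FPKM on the CL side and 443 to 1150 on the UUO side of Acot12+/+ mice, and 9 of 10 were called lower (limma). Those of Acot12-/- mice summed to 3929 to 7468 FPKM in CL and 268 to 1470 in UUO, and 10 of 10 were called lower. Their median change was -2.17 in Acot12+/+ and -2.55 in Acot12-/- on the log2 scale, beyond the -1.44 and -1.95 of Slc4a4. In Acot12-/- CL replicate 2, which had the highest Slc4a4 of all libraries, the marker sum was the lowest of its group, with Miox, Slc34a1 and Fbp1 at their lowest, while Lrp2 (162 FPKM), Slc5a12 (189) and Slc7a13 (668) were at their highest of the group. The genes closest to Slc4a4 over the 12 libraries were Dnajc6, which uncoats clathrin vesicles (r = 0.993), the monooxygenase gene Fmo2 (r = 0.992), Ankib1 (r = 0.988) and the mitochondrial aspartate-glutamate carrier gene Slc25a13 (r = 0.988).

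The electroneutral cotransporter Slc4a7 (NBCn1; chromosome 14), which imports bicarbonate in the thick ascending limb, was low and did not pass the test. Its levels in Acot12+/+ mice were 2.16, 2.04 and 1.69 FPKM on the CL side, then 2.06, 1.95 and 2.69 under UUO. In Acot12-/- mice they were 1.53, 3.54 and 1.11 FPKM on the CL side, then 2.22, 2.30 and 1.87 under UUO. The groups overlapped throughout, and the estimates of 0.12 ± 0.23 (SE; limma, adjusted p = 0.685) and 0.11 ± 0.23 (adjusted p = 0.712) were not called. The second turns on Acot12-/- CL replicate 2 with its 3.54 FPKM: without it the Acot12-/- estimate was 0.44 and called (limma, adjusted p = 0.0194), and without Acot12-/- CL replicate 3 it was -0.12.

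The remaining 3 members stayed below the level for testing. Slc4a8 (NDCBE; chromosome 15), the sodium-driven chloride bicarbonate exchanger of type B intercalated cells, was at 0.762, 0.710 and 0.569 FPKM in Acot12+/+ CL and at 0.896, 0.795 and 0.899 in Acot12+/+ UUO. In Acot12-/- it was at 0.606, 0.587 and 0.557 FPKM in CL and at 0.754, 0.862 and 0.706 in UUO. The UUO libraries lay above the CL libraries without overlap in both genotypes, with means 1.27-fold and 1.33-fold higher and 91 to 234 estimated fragments a library. When the filter on low values was dropped, it was called higher in both, by 0.15 ± 0.05 (SE; limma, adjusted p = 0.0481) and 0.16 ± 0.05 (adjusted p = 0.0297). Slc4a5 (NBCe2; chromosome 6), known from the choroid plexus, ranged from 0.079 to 0.305 FPKM, which is 5 to 24 estimated fragments a library. Slc4a10 (NBCn2; chromosome 2), known mainly from neurons and choroid plexus, ranged from 0 to 0.340 FPKM, 0 to 26 estimated fragments, and was listed at 0 in Acot12-/- CL replicate 3. The Slc4a5 libraries of Acot12-/- UUO (0.079 to 0.121 FPKM) lay below those of Acot12+/+ UUO (0.125 to 0.220) and of Acot12-/- CL (0.129 to 0.177). When the filter on low values was dropped, neither Slc4a5 nor Slc4a10 was called in any comparison (limma). At these fragment numbers differences between the groups can go unseen for both.

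Across genotypes the other members can be read beside Slc4a11. It was selected on this contrast, so the counts are a description: 1 of the 7 tested members was called in UUO kidneys, where 0.0151% of all tested genes were called, and 1 of 7 in CL kidneys, where 4.48% were, and both calls are Slc4a11. The UUO call was lost in 15 of 20 alternatives, the replicate block among them. The share of all genes called in CL kidneys was 22.1% without Acot12-/- CL replicate 2, 1.43% without Acot12+/+ CL replicate 1 and 0.00755% with only the groups compared, where Slc4a11 was not called. The fold of the other 6 tested members (Acot12-/- mean over Acot12+/+ mean) lay between 0.927 for Slc4a3 and 1.56 for Slc4a1 in UUO kidneys, and between 0.486 for Slc4a3 and 1.63 for Slc4a4 in CL kidneys (0.623 for Slc4a3 and 1.43 for Slc4a9 without Acot12-/- CL replicate 2). In UUO kidneys the libraries of these 6 overlapped between genotypes, and in CL kidneys all but Slc4a4 did. For Slc4a2 the 95% interval of the genotype difference was -0.54 to 0.47 on the log2 scale in UUO and -0.63 to 0.38 in CL kidneys (limma), so changes of that size can be present unseen. The interaction of genotype and UUO was called for 0 of the 7 members (limma), 0 of 7 also had an unadjusted p under 0.05, and 0.106% of all tested genes were called (6.92% without Acot12-/- CL replicate 2, with 0 members). For Slc4a11 this is no independent test, since it was chosen on the genotype differences that the interaction compares.

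The 4 members that changed shifted what the family's RNA consisted of. Slc4a4 made up 74.1% ± 2.70 (SD, n = 3) of the summed Slc4 FPKM on the CL side and 43.7% ± 3.40 on the UUO side of Acot12+/+ mice, and 82.8% ± 7.11 and 53.4% ± 3.31 in the Acot12-/- groups. Slc4a11 went from 2.91% ± 0.85 to 24.6% ± 2.07 in Acot12+/+ kidneys, where it passed Slc4a2 (16.4% ± 1.42) to become the second member by level. The Acot12-/- share went from 0.66% ± 0.21 to 9.49% ± 2.53, and Slc4a2 (17.8% ± 2.74) remained ahead of it. The summed FPKM of the family fell from 149 ± 5.08 to 91.6 ± 1.76 in Acot12+/+ and from 214 ± 53.8 to 82.9 ± 8.17 in Acot12-/- kidneys, where CL replicate 2 had the highest sum, 266 FPKM.

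**Figure D4:**
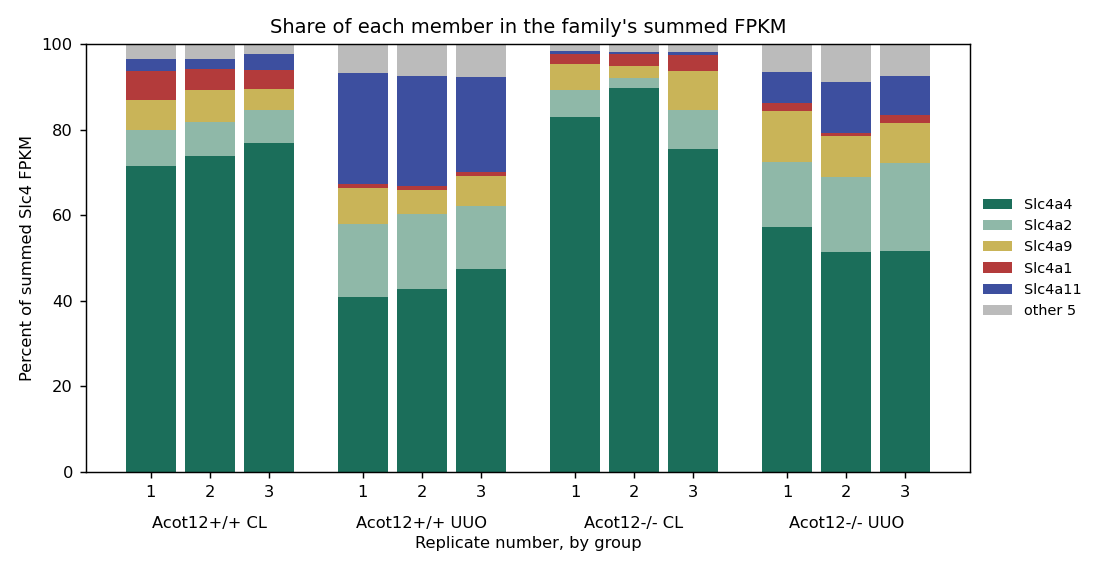
Percent of the summed Slc4 FPKM that each member takes in each of the 12 libraries (stacked bars, 3 a group). Grey shows Slc4a3, Slc4a5, Slc4a7, Slc4a8 and Slc4a10 together. The Slc4a11 segment is widest in the Acot12+/+ UUO libraries, at 22.3% to 25.9%, against 7.05% to 12.1% in Acot12-/- UUO.

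The other genes of acid-base transport were read from a list of 36 (carbonic anhydrases, sodium-proton exchangers, Slc26 exchangers, ammonia transporters, proton pump subunits and ammonia-forming enzymes), of which 33 were tested. Most of those called were lower in UUO. In Acot12+/+ kidneys 23 were called lower and 1 higher in UUO (limma), beside 23.9% and 23.6% of all tested genes, and the median change of the list was -1.06 on the log2 scale. In Acot12-/- kidneys 24 were called lower and 1 higher, beside 27.2% and 26.6% of all tested genes, with a median of -1.33. The largest falls in Acot12+/+ kidneys were those of Car14, a membrane-bound carbonic anhydrase (-2.88 ± 0.51 (SE), limma, adjusted p = 0.000725), Atp6v1g3, a proton pump subunit of intercalated cells (-2.42 ± 0.24, adjusted p = 1.75e-05), Slc9a8, a sodium-proton exchanger (-2.08 ± 0.42, adjusted p = 0.00157), and Pck1, which removes the carbon skeletons left by ammonia formation (-1.98 ± 0.55, adjusted p = 0.0115). The gene of the list called higher in Acot12+/+ kidneys was Gpr4, a proton-sensing receptor of endothelium (0.40 ± 0.12, limma, adjusted p = 0.0144), a call lost without Acot12+/+ UUO replicate 1. For the interaction 0 of 33 were called (limma), beside 0.106% of all tested genes, with 2 at an unadjusted p under 0.05. Without Acot12-/- CL replicate 2 the interaction was called for 2, beside 6.92% of all tested genes.

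**Figure D5:**
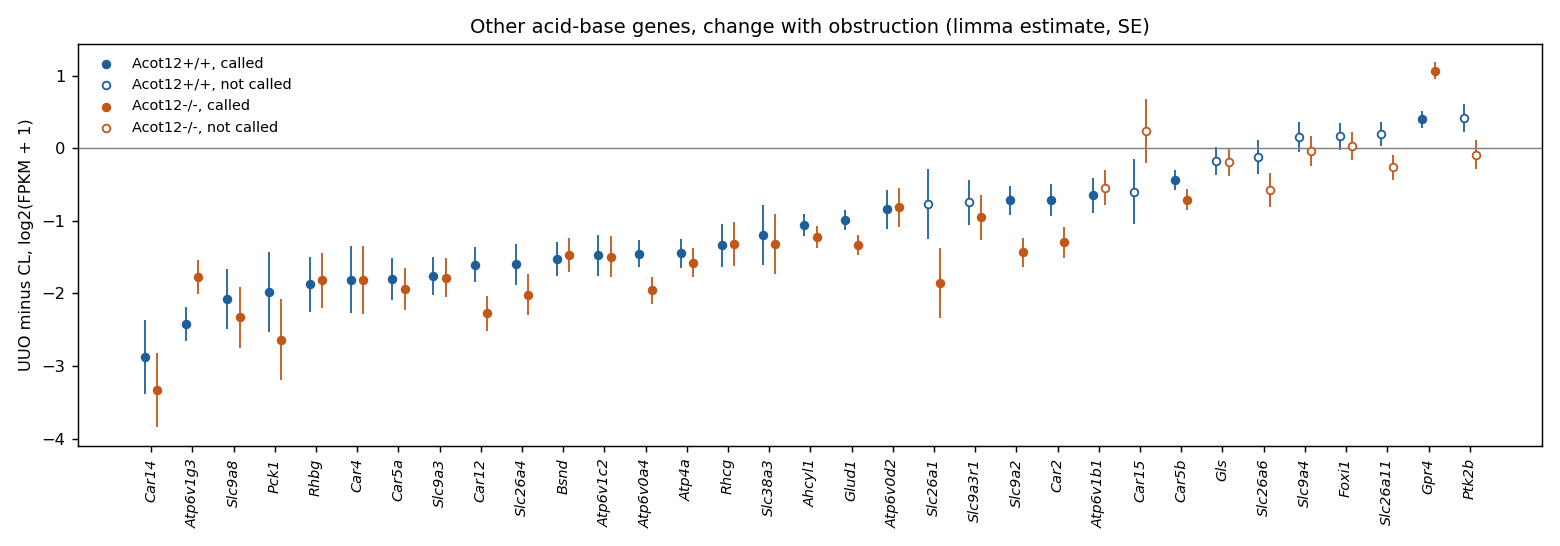
Change with obstruction (limma estimate on log2(FPKM + 1), whiskers SE) of the 33 tested acid-base genes outside the Slc4 family, ordered by the Acot12+/+ estimate, in Acot12+/+ (blue) and Acot12-/- (orange), filled where called. Most points lie below 0 in both genotypes, from -2.88 for Car14 to 0.41 for Ptk2b in Acot12+/+.

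All FPKM rest on the scaling of the libraries, whose summed FPKM were lower in UUO than in CL. Scaling every library to the same total moved the median of all genes up by 0.61 (Acot12+/+) and 0.46 (Acot12-/-) on the log2 scale in UUO against CL: Slc4a11, Slc4a3, Slc4a1 and Slc4a4 kept their directions and calls in both genotypes, Slc4a2 was then called higher in both (1.00 and 0.91), Slc4a7 in Acot12+/+ (0.62), and Slc4a9 turned to 0.15 and 0.12. Relative to that shift, Slc4a9 still lay below the median gene. The calls in Acot12+/+ kidneys were then 4 higher and 2 lower among the members, 5 higher and 14 lower among the acid-base genes, and 7427 higher of 8474 over all genes, and in Acot12-/- kidneys 6078 higher of 7630 over all genes.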

How the data were processed

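RNA from kidney cortex was sequenced after directional library preparation by the authors. Their processing notes name the build mm10, normalization and edgeR, and the aligner is not given in the sources used here. The deposited values are FPKM per gene symbol, made by the authors. The unit was derived from the values, whose low end falls on whole steps that scale with transcript length, and these steps also gave the approximate library size. Gene positions are from GENCODE vM21. From the FPKM, log2(FPKM + 1) was fitted with limma 3.58.1 in R 4.3.3, all 4 groups in a single model, eBayes with a variance trend, Benjamini-Hochberg adjustment over 13243 genes. A gene was tested at 1 FPKM or more in at least 3 libraries, and 58 genes listed at 0 beside at least 10 FPKM in the same group were left out. Fold changes on this scale understate low genes. The members and gene lists were chosen with earlier results of these data known. Named are all members, Acot12, the 4 genes most correlated with Slc4a11, Slc4a4, Slc4a1 and Slc4a9, the acid-base genes with the largest called changes (up to 4 a direction) and the 2 nearest tested genes on each side of Slc4a11, with markers named beside the member they were read with. Some genes of the lists and of this rule are not reported here, and list counts and sums were computed without them. Replicate numbers were taken as possible kidney pairs within a genotype, which the labels do not state. Residuals of CL and UUO libraries correlated at 0.134 to 0.364 for the same number and at -0.363 to 0.139 for different numbers. The ranges overlapped narrowly in Acot12+/+ (0.134 and 0.139). In Acot12-/- they lay apart, at 0.186 to 0.322 and at -0.177 to -0.075. The main fit did not use the numbers. The fit was tested on simulated data. Other scalings, pseudocounts, filters, a replicate block and leaving out each library were the alternatives.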

Additional observations from a re-analysis of the deposited data

How the results depend on the processing

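The calls of Slc4a11, Slc4a1 and Slc4a4 in UUO against CL held in all 20 alternatives in both genotypes, and those of Slc4a3 in all but the one that left out Acot12+/+ CL replicate 3. The number of members called ranged from 3 to 6 in Acot12+/+ and from 4 to 6 in Acot12-/- kidneys, and that of the interaction was 0 in 19 (the fit of only the groups compared gives none). In the genotype comparison of UUO kidneys the call of Slc4a11 was lost (0 members called) with a pseudocount of 0.1, no filter, median-ratio size factors, only the groups compared, the replicate block, and the genes listed at 0 kept, and leaving out a library gave 0 to 1 (the call was kept in 3 of 12), the estimate staying between -1.62 and -1.34. In CL kidneys it was lost (0) with only the groups compared, and leaving out a library gave 1 to 2, the second being Slc4a4 without Acot12-/- CL replicate 3. Fitting the replicate number as a block (replicate block, which treats CL and UUO libraries of the same number as pairs) left 4 members called in each genotype and changed no other call of a member.

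Directions turned for estimates that were not called. With a pseudocount of 0.1 the interaction was 0.033 for Slc4a7 and 0.046 for Slc4a11. With every library at the same total Slc4a9 was 0.15 in Acot12+/+ and 0.12 in Acot12-/- UUO against CL, the interaction was -0.088 for Slc4a2 and -0.032 for Slc4a9, and Slc4a4 was -0.031 between genotypes in UUO. Leaving out a library, Slc4a7 ranged from -0.12 to 0.44 in Acot12-/- UUO against CL, and the interaction from -0.24 to 0.31 for Slc4a7, -0.14 to 0.28 for Slc4a9 and -0.25 to 0.28 for Slc4a2. Between genotypes the ranges were -0.105 to 0.055 for Slc4a7 and -0.098 to 0.012 for Slc4a2 in UUO, and -0.36 to 0.20 and -0.31 to 0.22 in CL kidneys. The cause was not tested. With 3 libraries a group and no counts, the spread between libraries limits what can be seen, most for Slc4a5 and Slc4a10.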
